A study of Mus musculus with 12 samples.

Results

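Ectopic Norrin was compared with wild type in mouse yolk sac at embryonic day 8.5 (E8.5), on 6 of the 12 arrays of the series: 3 from Z/Norrin yolk sacs and 3 from wild type yolk sacs of the same day. The arrays were taken by their titles. The remaining 6 arrays repeat the design at E10.5 and were used here to estimate the spread and to set each E8.5 effect beside the later one. Each sample was total RNA from the pooled yolk sacs of 3 to 5 embryos, of mixed gender and on a C57Bl6/129 mixed background in both groups. Z/Norrin embryos made Norrin where it is not normally made, from a conditional over-expression allele. Which cells carried the active allele, which Cre line drove it and from what day is not known from the labels. The replicates are separate pools, so a p-value here is set against the spread between pools, taken over both stages. In the paired test described below it is set against the spread that remains once same-numbered pools are matched. Norrin pools 1 to 3 and wild type pools 1 to 3 are named by the replicate numbers in the labels.

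Norrin, the product of the X-linked gene Ndp, is a secreted cystine-knot protein. It binds the receptor Frizzled4 together with the coreceptors Lrp5 or Lrp6 and the tetraspanin Tspan12, which stabilises beta-catenin and lets TCF/LEF factors switch on their target genes, much as a Wnt ligand does. It is best known for vessel growth in the retina and inner ear. The yolk sac of this stage has an outer visceral endoderm, which takes up maternal protein and secretes plasma proteins and lipoproteins as the later liver does, and an inner mesoderm that gives the first blood cells and vessels.

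Levels are log2 values from the authors' normalization and an effect is the Norrin mean minus the wild type mean, so that 1 unit is a doubling. The median array value at E8.5 lay between 6.59 and 6.73, and the median level of a gene over all 12 arrays was 7.68. The pools carried what a yolk sac should: the embryonic globin Hbb-bh1 stood at 14.52 to 14.69, the retinol carrier transthyretin (Ttr) at 14.14 to 14.51 and the endocytic adaptor amnionless (Amn) at 12.59 to 13.04, while the heart myosin Myl7 and the neural factor Sox2 stayed at 5.72 to 6.08 and 3.68 to 3.92. Arrays of 1 group correlated at r = 0.975 to 0.992 across genes. Both replicates 3 stood apart from replicates 1 and 2. They correlated with those at 0.967 to 0.987, against 0.988 to 0.994 among replicates 1 and 2, and the mean of 9 hybridisation control probe sets, RNA spiked in at a known amount, was 11.82 and 11.85 in them against 10.29 to 10.69. Same-numbered Norrin and wild type pools were alike (r = 0.987 to 0.994), though those of number 2 (0.990) were less alike than wild type pools 1 and 2 (0.992). Each result is thus given by a limma test on the group means (the unpaired test). Where the call differs, a limma test with replicate number as a block (the paired test) is given too. Adjusted p-values are over 18193 genes, with a threshold of 0.05.

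The ligand and its receptor complex did not differ past the threshold. Ndp, whose single probe set lay near the floor of the array, read 4.48, 4.68 and 4.61 in wild type and 4.45, 4.64 and 4.54 in Norrin. Whether that probe set covers the transgene's transcript is not known here, so it checks nothing about the labels. Fzd4, the Norrin receptor, stood at 9.70, 9.37 and 8.77 in wild type pools 1 to 3 and at 9.70, 9.56 and 8.97 in Norrin pools 1 to 3 (effect 0.13, SE 0.24, adjusted p = 0.908). The receptor was thus well expressed in every pool, with overlapping groups. The effects of the coreceptors were -0.02 for Lrp5, -0.29 for Lrp6 and 0.07 for Tspan12, and 0 of the 5 genes of the complex passed either test. Of 12 Frizzled, Ror and Ryk receptors, the largest effect was 0.41 (Fzd2, adjusted p = 0.678), and 0 passed.

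By the unpaired test 14 of 18193 genes changed, 0.077% of those tested. There were 10 higher in Norrin (0.055%) and 4 lower (0.022%). At an unadjusted p under 0.05 there were 1314 genes (7.22%). For each of the 14, no Norrin value fell within the wild type range; such separation was found in 11.9% of all genes, 5.89% with Norrin above and 6.02% with Norrin below. The higher genes were the neurofilament chains Nefl and Nefm, the transcription factors Sox17, Msx2 and Zfp703, the retinoic acid hydroxylase Cyp26a1, and the membrane or secreted proteins Flrt3, Cpm, Prom1 and Scube2. The lower genes were the cation carrier Slc22a2, apolipoprotein Apoa4, the iron exporter Slc40a1 and Tcim. The paired test called all 14, and it called 257 genes in all (1.41%), 146 higher (0.803%) and 111 lower (0.61%). Effects over all genes had a median of -0.02.

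**Figure D1:**
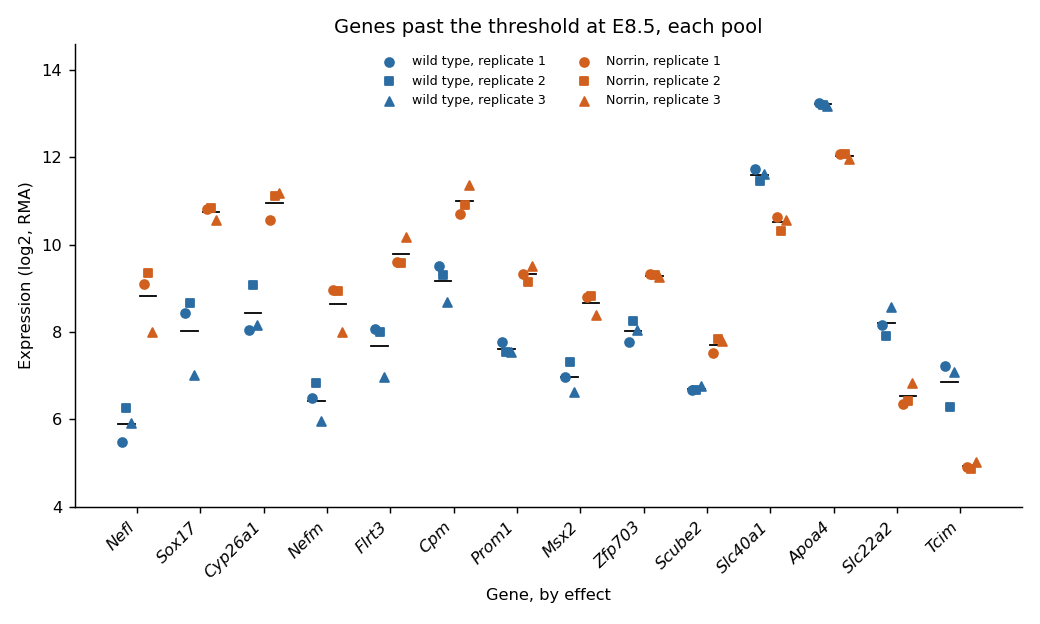
Level (log2, RMA) of the 14 genes past the unpaired threshold in each of the 3 wild type and 3 Norrin pools at E8.5, ordered by effect, with marker shape for replicate number. The 10 genes to the left lie higher in every Norrin pool and the 4 to the right lower, with no overlap between groups.

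Of all genes tested the neurofilament gene Nefl had the largest effect. Nefl, the light chain of the neurofilament, an intermediate filament of neurons, read 5.49, 6.25 and 5.91 in wild type and 9.10, 9.35 and 8.01 in Norrin. Every Norrin pool was thus well above the wild type pools, and pool 3 least so (7.64-fold, effect 2.93, SE 0.33, adjusted p = 0.0065). Nefm, the medium chain, read 6.50, 6.83 and 5.96 against 8.97, 8.94 and 7.99 (effect 2.20, SE 0.27, adjusted p = 0.0098). The genes lie close together on chromosome 14 (GRCm38.p6), Nefl at 68083863 to 68089095 and Nefm at 68119545 to 68125004. Wild type levels of both were below the median gene, so the rise took them from low to above the median. Calls did not extend to other neuronal genes: of 12 neurofilament and neuronal cytoskeleton genes these were the 2 called by either test, the list's median effect was 0.01, and the heavy chain Nefh read 4.29 to 4.94 in wild type and 4.21 to 4.88 in Norrin. The neuronal tubulin Tubb3 and alpha-internexin (Ina) had effects of 0.05 and -0.03. The 2 calls are 16.7% of the list, against 0.803% of all genes higher by the paired test.

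Sox17, an HMG-box factor needed for endoderm and for arteries, read 8.44, 8.66 and 7.0 in wild type and 10.82, 10.85 and 10.58 in Norrin. The wild type pools were spread, with pool 3 lowest, while the Norrin pools were close together (6.56-fold, effect 2.71, SE 0.36, adjusted p = 0.0171). A second probe set gave 2.65. The gene lies on chromosome 1 at 4490928 to 4497426. Its closest relatives, Sox7 and Sox18, which share endothelial roles with it, had effects of 0.52 (adjusted p = 0.737) and -0.19 (adjusted p = 0.871), with overlapping groups.

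Cpm, a membrane carboxypeptidase, stood beside Sox17 in the list of definitive endoderm and gut genes and read 9.51, 9.30 and 8.68 against 10.71, 10.91 and 11.38 (effect 1.83, SE 0.25, adjusted p = 0.0193). Of the 20 genes of that list 2 rose by the unpaired test and 4 by the paired test (20%, against 0.803% of all genes). The list median was 0.12. The other 2 were Nepn, a leucine-rich proteoglycan of the foregut (5.16, 5.14 and 5.16 against 6.35, 5.45 and 6.46; adjusted p = 0.384 unpaired, 0.0496 paired), and the zinc finger factor Gata6 (effect 0.68; 0.418 unpaired, 0.0495 paired). Gata4, the partner of Gata6 in visceral endoderm, read 9.50, 9.26 and 9.79 against 10.03, 10.35 and 10.34 (effect 0.73; 0.509 unpaired, 0.0302 paired). Every Norrin pool was higher for these factors, by 0.37 to 1.10 within a pair. For Gata6 the 2 other probe sets gave 0.44 and -0.14. Among 16 endoderm transcription factors Gata4 and Gata6 were the 2 called, against a background of 0.803% higher by the paired test. Foxa2 (0.27), Foxa1 (0.15) and Hhex (0.31) did not pass, nor did Hnf4a, the nuclear receptor that drives many liver genes (12.06, 11.91 and 11.97 against 11.74, 11.53 and 11.88; effect -0.27, adjusted p = 0.716). With any 1 pair left out 2 genes of the definitive endoderm list and 0 of the endoderm transcription factors passed, and with the block in the 6 E8.5 arrays alone the adjusted p was 0.0604 for Gata4, 0.0829 for Gata6 and 0.0733 for Nepn.

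Cyp26a1, which hydroxylates retinoic acid and so clears it, was the third largest effect. It read 8.04, 9.07 and 8.17 in wild type and 10.58, 11.12 and 11.20 in Norrin, without overlap (5.81-fold, effect 2.54, SE 0.31, adjusted p = 0.0098). Other genes that handle retinoids gave a mixed picture. By the paired test 1 of 21 retinoid genes was higher, Cyp26a1, and 2 were lower: Adh1, an alcohol dehydrogenase that can oxidise retinol, at 7.33, 7.17 and 8.08 against 6.65, 6.56 and 7.14 (effect -0.74; adjusted p = 0.612 unpaired, 0.0165 paired), and the retinoic acid receptor Rarb at 6.91, 6.60 and 6.84 against 6.39, 6.05 and 6.07 (effect -0.61; 0.439 unpaired, 0.0461 paired). Rarb is itself a textbook target of retinoic acid, but retinoic acid was not measured here and a change in it was not tested. The Rarb call was lost with any 1 pair left out. The cellular retinoic acid binding proteins Crabp1 and Crabp2 had effects of 1.37 and 0.84 and passed neither test (0.0909 and 0.105 paired). Crabp1 rested near the floor in wild type, at 4.60 to 4.87, and reached 5.66 to 6.62 in Norrin. The related hydroxylase Cyp26b1 had an effect of -0.46 (adjusted p = 0.335). The retinoid list had a median of -0.19. Its 1 higher and 2 lower calls are 4.76% and 9.52% of it, against 0.803% and 0.61% of all genes, and with pair 1, 2 or 3 left out 1, 1 and 0 were higher and 0, 1 and 0 lower.

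Since Norrin acts through beta-catenin, the feedback and target genes of that route were read next. Of 21 measured, 1 rose by the unpaired test and 4 by the paired test (19%, against 0.803% of all genes), and the list median was -0.04. The 4 were Msx2, Msx1, Axin2 and Tbx3. Msx2, a homeobox gene also known as a BMP target, read 6.96, 7.32 and 6.62 against 8.80, 8.82 and 8.40 (effect 1.71, SE 0.26, adjusted p = 0.039; 0.00027 paired). A second Msx2 probe set gave -0.06, so the call rests on 1 of its 2 probe sets. Its relative Msx1 read 9.06, 9.22 and 8.55 against 10.44, 10.58 and 9.30 (effect 1.17; 0.301 unpaired, 0.0113 paired). Axin2, the scaffold that feeds back on beta-catenin, read 7.36, 7.55 and 7.89 against 8.90, 8.83 and 8.29 (effect 1.07; 0.0701 unpaired, 0.0392 paired; 0.0614 with the block in the 6 E8.5 arrays alone). The difference within a pair was 1.54 and 1.27 in pairs 1 and 2 and 0.40 in pair 3. Second probe sets gave 0.56 for Axin2, which passed the paired test (adjusted p = 0.0419), and 0.55 for Msx1, which did not. Tbx3, a T-box repressor, had an effect of 0.81 (0.529 unpaired, 0.0136 paired). Its other probe sets gave 0.86, 0.48, 0.28 and -0.32, and none of them passed the paired test. Other common readouts passed neither test, with effects of -0.14 for Lef1, 0.08 for Sp5, 0.09 for Lgr5, 0.29 for Nkd1, 0.26 for Ccnd1 and -0.18 for Myc. With pairs 1, 2 and 3 left out, 1, 2 and 3 genes of the list passed, with list medians of -0.06, -0.12 and 0.11.

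Secreted Wnt antagonists gave 2 paired calls among 21 (9.52%, against 0.803% of all genes), and 1, 1 and 0 with pair 1, 2 or 3 left out. Dkk1, which blocks Lrp5 and Lrp6 and is a target of beta-catenin, read 6.89, 6.42 and 6.24 against 7.49, 7.87 and 7.75 (effect 1.18; adjusted p = 0.234 unpaired, 0.0215 paired). Frzb, a soluble Frizzled-like protein, read 6.79, 6.91 and 6.42 against 7.44, 7.93 and 7.79 (effect 1.02; 0.0933 unpaired, 0.0302 paired). For both the groups lay apart. Second probe sets gave 0.65 for Dkk1 and 0.72 for Frzb, and neither passed the paired test. The Frzb call was lost with any 1 pair left out. Tnfrsf19, an orphan receptor of the TNF receptor family and a known Wnt target in other tissues, had the largest increase among the genes called by the paired test alone and lying at or above the median gene level in the higher group. It read 5.71, 6.07 and 5.93 against 8.75, 7.97 and 7.06 (4.07-fold, effect 2.02; 0.0701 unpaired, 0.0281 paired), and 2 further probe sets gave 0.82 and 0.62. Among 23 Wnt ligands 0 rose and 1 fell by the paired test, Wnt16 (effect -0.45, from 5.40, below the median gene; 0.562 unpaired, 0.0476 paired). Wnt16 is 4.35% of the list, against 0.61% of all genes. Its call was lost with any pair left out and with the block in the 6 E8.5 arrays alone (adjusted p = 0.0891). Wnt5a, a ligand best known for signalling without beta-catenin, had the largest effect of the list. It read 7.02, 7.43 and 5.90 against 8.40, 7.95 and 6.89, higher in each pair but with overlapping groups (effect 0.97; 0.678 unpaired, 0.0781 paired, 0.0413 with the block in the 6 E8.5 arrays alone). Of its 3 other probe sets, 1 passed the paired test (effect 0.68, adjusted p = 0.0215), and the others gave 0.97 and -0.06.

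The 250 bases before the RefSeq start sites of Dkk1, Tnfrsf19 and Cyp26a1 are shown because the first 2 carry a core word bound by TCF/LEF factors and the most strongly raised retinoid gene does not. The words searched were CTTTGAT and CTTTGAA on both strands, overlaps counted, in the 300-base window from 250 before to 50 after each start. Capitals mark the word, and sequences are RefSeq's on GRCm38.p6, written 5′ to 3′ on the gene's strand. Dkk1 is chr19:30549497-30549746 on the minus strand, Tnfrsf19 chr14:61037988-61038237 on the minus strand and Cyp26a1 chr19:37697558-37697807 on the plus strand.
Dkk1: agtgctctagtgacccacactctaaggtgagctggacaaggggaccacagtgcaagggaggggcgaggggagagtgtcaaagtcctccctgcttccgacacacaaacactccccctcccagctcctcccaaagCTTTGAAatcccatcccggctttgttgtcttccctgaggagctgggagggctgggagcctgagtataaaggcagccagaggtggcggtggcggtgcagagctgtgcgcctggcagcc
Tnfrsf19: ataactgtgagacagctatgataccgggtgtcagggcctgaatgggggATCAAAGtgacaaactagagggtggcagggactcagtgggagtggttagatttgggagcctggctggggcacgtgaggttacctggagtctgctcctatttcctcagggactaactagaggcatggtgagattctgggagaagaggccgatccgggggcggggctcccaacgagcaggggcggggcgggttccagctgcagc
Cyp26a1: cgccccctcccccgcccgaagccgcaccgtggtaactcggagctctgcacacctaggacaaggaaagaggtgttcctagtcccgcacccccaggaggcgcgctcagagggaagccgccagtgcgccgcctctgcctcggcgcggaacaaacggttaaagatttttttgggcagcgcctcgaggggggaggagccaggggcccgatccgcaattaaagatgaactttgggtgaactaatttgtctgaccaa
The word begins at -117 in Dkk1 and, as its reverse complement, at -202 in Tnfrsf19, whose other listed start has none. Axin2, Msx1, Msx2 and Frzb, paired calls described above, hold no such word in this window. Such words are common: 8.65% of the 32851 promoters in the table hold one, and 8.1% of the 14368 tested genes with an entry. Among genes called by the paired test 7 of 113 higher genes (6.19%) and 10 of 86 lower genes (11.6%) held one. Of the 14 genes of the unpaired test, 8 had an entry and 0 held a word. A match is a description of the letters and no match says only that they are absent from this window.

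The remaining higher genes were surface, secreted or nuclear proteins. Prom1, a pentaspan glycoprotein of membrane protrusions, had the smallest adjusted p. It read 7.78, 7.54 and 7.54 against 9.33, 9.15 and 9.51, with small spread in both groups (3.27-fold, effect 1.71, SE 0.14, adjusted p = 0.00056), and it stayed past the threshold with any 1 of the 6 arrays left out. Zfp703, a zinc finger repressor, read 7.78, 8.26 and 8.05 against 9.32, 9.30 and 9.26 (effect 1.26, SE 0.14, adjusted p = 0.0065). Its 2 other probe sets gave 0.03 and 0.23. Flrt3, a leucine-rich transmembrane protein that modulates FGF signalling and cell adhesion, read 8.06, 8.0 and 6.98 against 9.61, 9.59 and 10.17 (effect 2.11, SE 0.33, adjusted p = 0.0449). Wild type pool 3 was the lowest and Norrin pool 3 the highest. Scube2, a secreted protein that helps release Hedgehog ligands, read 6.66, 6.66 and 6.76 against 7.52, 7.83 and 7.78 (effect 1.02, SE 0.14, adjusted p = 0.0214).

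Flrt3 and Scube2 belong to pathway lists, Prom1 and Zfp703 to none of the lists used here. Of 24 FGF genes Flrt3 rose and Spry1, a feedback inhibitor of receptor tyrosine kinases, fell by the paired test, at 8.99, 9.42 and 9.22 against 8.49, 8.57 and 7.69 (effect -0.96; adjusted p = 0.234 unpaired, 0.0433 paired; 0.0633 with the block in the 6 E8.5 arrays alone). Dusp6, a phosphatase induced by ERK, had an effect of -1.19 in the same direction, carried mostly by Norrin pool 3 at 7.34 (0.102 paired). The 1 higher and 1 lower FGF call are each 4.17% of the list, against 0.803% and 0.61% of all genes. With pair 1, 2 or 3 left out 0, 1 and 1 of the list passed. Among 16 Hedgehog genes Scube2 was the 1 called, and Ihh, the ligand made by visceral endoderm, read 10.05, 9.81 and 9.94 against 10.23, 10.56 and 10.83 (effect 0.61; 0.0661 paired). Scube2 is 6.25% of the Hedgehog list, against 0.803% of all genes. With pair 1, 2 or 3 left out 2, 1 and 0 Hedgehog genes passed. Of 26 BMP and TGF-beta genes 3 rose by the paired test, Msx2, Msx1 and Bmp2. They are 11.5% of the list, against 0.803% of all genes. With pair 1, 2 or 3 left out 1, 1 and 2 of the list passed. The Bmp2 call was lost with any 1 pair left out. Bmp2, a ligand, read 7.70, 7.67 and 5.56 against 8.57, 8.38 and 6.95 (effect 0.99; 0.716 unpaired, 0.0341 paired), so both pools 3 were low and the groups overlapped.

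Pdgfra, the PDGF receptor of mesenchyme and parts of the endoderm, read 10.10, 10.17 and 8.69 in wild type and 11.31, 11.16 and 11.10 in Norrin (effect 1.54, SE 0.32; adjusted p = 0.171 unpaired, 0.0305 paired). Wild type pool 3 was low, as it was for Sox17 and Flrt3. A matricellular protein of mesenchyme, periostin (Postn), was the other call among 24 mesoderm and mesenchyme genes (effect 0.75; 0.389 unpaired, 0.0408 paired), and the list median was 0.02. These are 8.33% of the list, against 0.803% of all genes. With any 1 pair left out 0 of the list passed, and the adjusted p of Postn with the block in the 6 E8.5 arrays alone was 0.0502.

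**Figure D2:**
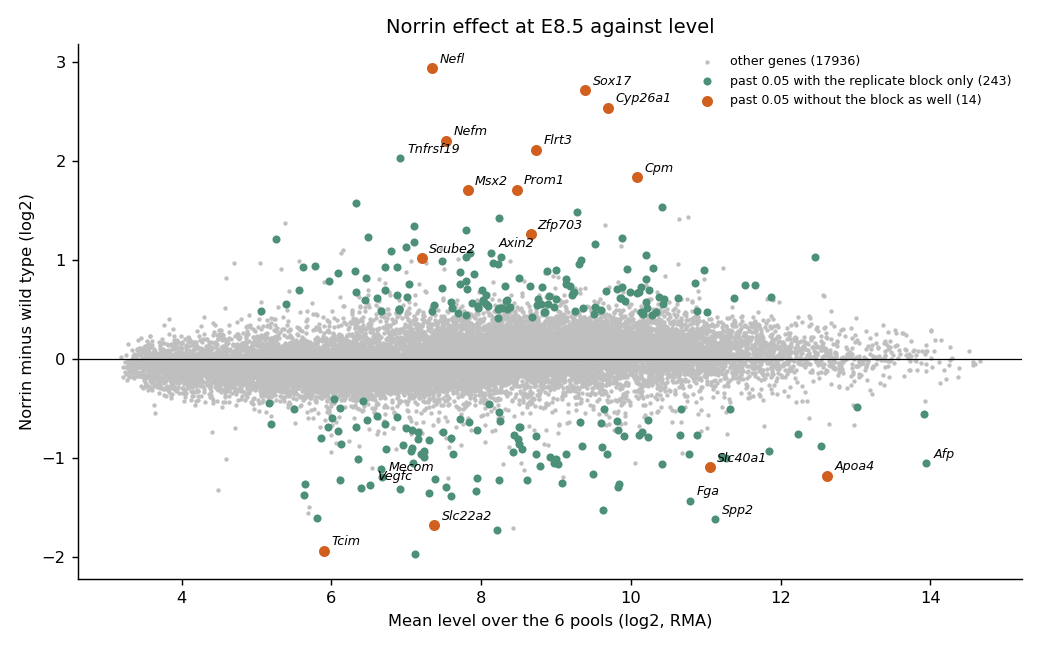
Effect (Norrin minus wild type, log2) of each of 18193 genes against its mean level over the 6 E8.5 pools, with the genes called by the unpaired and by the paired test in colour. Called genes span the range of levels, with Apoa4 the most abundant of the 14, and the largest effects are positive.

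The lower genes were an apolipoprotein, a pair of transporters and a regulator. Slc22a2, an organic cation transporter, read 8.17, 7.91 and 8.56 in wild type and 6.35, 6.43 and 6.84 in Norrin (3.2-fold lower, effect -1.68, SE 0.20, adjusted p = 0.0081). Apoa4, an apolipoprotein of chylomicrons and high-density lipoprotein, was an abundant transcript with little spread within either group: 13.24, 13.21 and 13.19 against 12.07, 12.07 and 11.96 (2.26-fold lower, effect -1.18, SE 0.19, adjusted p = 0.0449). Slc40a1, ferroportin, the only known cellular iron exporter, read 11.74, 11.46 and 11.61 against 10.64, 10.32 and 10.57 (2.13-fold lower, effect -1.09, SE 0.16, adjusted p = 0.0313). The groups were well separated in all of them, and the decrease was alike in every pair, for Slc40a1 -1.10, -1.14 and -1.04. Tcim, a small regulator described as an activator of beta-catenin signalling, read 7.21, 6.29 and 7.09 against 4.91, 4.87 and 5.01 (3.82-fold lower, effect -1.94, SE 0.27, adjusted p = 0.0214), so in Norrin it was close to the floor and its decrease may be understated. Second probe sets gave -1.24 for Apoa4, -0.84 for Slc40a1 and -1.24 for Tcim.

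By the unpaired test Slc22a2 and Slc40a1 were single calls among their kind. By the paired test 6.67% of the carriers were lower, against 0.61% of all genes. With pair 1, 2 or 3 left out 1, 1 and 1 of the carriers passed. Of 30 carriers of amino acids and organic ions Slc22a2 fell, joined in the paired test by the cystine carrier subunit Slc7a9 (effect -0.50; adjusted p = 0.583 unpaired, 0.0433 paired). Aqp8, a water channel, had the largest effect in the other direction (1.41; 0.323 unpaired, 0.0857 paired), with Norrin pool 3 highest at 12.22. Of 18 genes of iron transport and storage Slc40a1 was the 1 called, 5.56% of the list against 0.61% of all genes by the paired test. With pair 1, 2 or 3 left out 0, 1 and 0 of that list passed. Ferritin heavy chain (Fth1) had an effect of 0.28 (adjusted p = 0.701), the transferrin receptor Tfrc 0.02 and the metal importer Slc39a8 -0.68 (0.121 paired).

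Secreted plasma proteins, the main export of visceral endoderm, held the most paired calls of any list. Of 24 measured of the 30 listed, 0 passed the unpaired test, and 8 fell and 0 rose by the paired test, which is 33.3% against 0.61% of all genes. The list median was -0.36, and 15 of the 24 were lower in all 3 pairs, as were 24.9% of all genes. With pair 1, 2 or 3 left out the count of lower genes was 2, 4 and 4. The 8 were Spp2, Serpina1b, Fga, Serpind1, Afp, Fgg, Plg and Ambp. The mean level of the list was 9.28, 9.14 and 9.72 in wild type pools 1 to 3 and 8.67, 8.66 and 9.21 in Norrin pools 1 to 3, so that pools 3 were the highest of both groups and the groups met only through Norrin pool 3.

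Alpha-fetoprotein (Afp), the fetal albumin-like carrier, read 14.52, 14.26 and 14.64 in wild type and 13.13, 12.99 and 14.14 in Norrin (2.07-fold lower, effect -1.05; adjusted p = 0.234 unpaired, 0.0215 paired). Pair 3 had the smallest decrease. The mean of the 5 Afp probe sets gave a smaller effect, -0.61. Of the fibrinogen chains, which polymerise into clots, Fga read 11.55, 10.91 and 12.06 against 9.74, 9.66 and 10.82 (effect -1.43; 0.331 unpaired, 0.0042 paired) and Fgg 11.63, 11.33 and 12.35 against 10.44, 10.30 and 11.58 (effect -1.0; 0.559 unpaired, 0.0057 paired). The third chain, Fgb, had an effect of -0.57 (0.0765 paired). Spp2, a secreted phosphoprotein, read 11.76, 11.17 and 12.86 against 9.98, 9.69 and 11.28. Its pairs differed by -1.79, -1.49 and -1.59, which gave 1 of the smallest paired p-values (effect -1.62; 0.335 unpaired, 0.00027 paired), though a second probe set gave -0.12.

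Protease inhibitors and zymogens were among the lower genes. Serpina1b, an alpha-1-antitrypsin, read 9.20, 7.77 and 10.26 against 6.76, 6.74 and 8.54 (effect -1.73; adjusted p = 0.552 unpaired, 0.0153 paired). Its family has near-identical copies that share probes, so which copy fell is uncertain. Heparin cofactor II (Serpind1) had an effect of -1.22 (0.462 unpaired, 0.0252 paired), plasminogen (Plg) -0.96 (0.559 and 0.0287) and Ambp, the precursor of alpha-1-microglobulin and bikunin, -0.69 (0.406 and 0.0461). The complement regulator Cfi, outside the list, read 10.47, 9.51 and 11.21 against 9.01, 8.18 and 9.40 (effect -1.53; 0.381 and 0.0113).

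Not every abundant product followed. Transthyretin (Ttr) had an effect of -0.18 (adjusted p = 0.741), retinol binding protein Rbp4 -0.25 (0.716), antithrombin Serpinc1 0.03, coagulation factor F10 0.11 and amnionless -0.06 (Amn, 0.933). Albumin (Alb) was low in every pool, at 6.08 to 6.52. Of 15 apolipoprotein and lipoprotein assembly genes 3 fell by the paired test (20%, against 0.61% of all genes): Apoa4, Apoa2 (12.40, 12.15 and 13.28 against 11.44, 11.48 and 12.64; effect -0.76; 0.673 unpaired, 0.018 paired) and Apob, the backbone of very-low-density lipoprotein (effect -0.49; 0.673 unpaired, 0.0305 paired). For Apob a second probe set gave 0.05, and the block in the 6 E8.5 arrays alone an adjusted p of 0.0697. With any 1 pair left out 1 of the 15 passed. Apoa1 read 13.98, 14.22 and 14.21 against 13.76, 13.57 and 13.82 without overlap and missed the paired threshold (effect -0.42; 0.0825 paired). Apoe (-0.11), Apoc2 (-0.07) and the lipid transfer protein Mttp (-0.05) were close to 0, and the list median was -0.13.

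**Figure D3:**
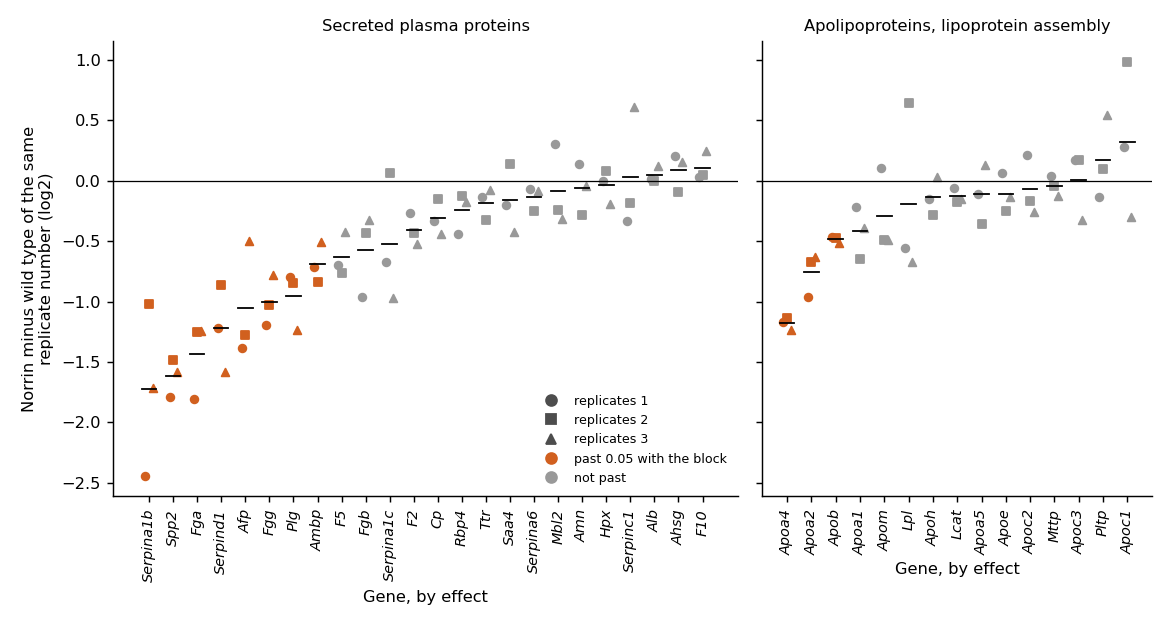
Difference (log2) between the Norrin and wild type pools of the same replicate number for each secreted plasma protein gene and each apolipoprotein or lipoprotein assembly gene, with marker shape for replicate number and colour for a paired call. The 8 called plasma protein genes and the 3 called apolipoprotein genes lie below 0 in all 3 pairs.

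Uptake genes of the endoderm gave few calls, 4.55% of their list by the paired test against 0.61% of all genes lower. Of 22 genes of endocytosis and lysosomal digestion 1 fell by the paired test, Fcgrt, the neonatal Fc receptor that carries maternal IgG, at 8.93, 9.10 and 10.45 against 8.04, 8.19 and 9.10 (effect -1.05; adjusted p = 0.612 unpaired, 0.0050 paired). The fatty acid importer and acyl-CoA synthetase Slc27a2 read 8.27, 7.50 and 9.11 against 6.75, 6.66 and 7.31 (effect -1.38; 0.296 unpaired, 0.0235 paired), and Fabp1, the liver fatty acid binding protein, moved the other way, at 7.75, 7.41 and 8.08 against 8.61, 8.69 and 9.05 (effect 1.03; 0.706 unpaired, 0.0052 paired). Fabp1 was picked after its values were seen. In bulk tissue fewer cells of a type and less RNA per cell cannot be told apart.

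Among genes without overlap and with a wild type mean at or above 7.68, the 10 largest decreases called by the paired test also took in genes of varied roles. H2-Q2, an MHC class I gene, read 8.97, 8.51 and 6.82 against 6.66, 5.97 and 5.75 (effect -1.97; adjusted p = 0.416 unpaired, 0.0192 paired). Class I genes are near-copies of each other, so which of them gave the signal is uncertain. Col14a1, a fibril-associated collagen, read 8.23, 7.62 and 8.08 against 6.56, 6.38 and 6.93 (effect -1.35; 0.221 and 0.0047), and 2 other probe sets gave -0.55 and -0.29. Effects of -1.33 for Urah, an enzyme of urate breakdown (0.0258 paired), -1.29 for the amidoxime reductase Mtarc1 (0.0145), -1.25 for semaphorin Sema4a (0.0197) and -1.22 for the focal adhesion protein Tns1 (0.0053) were also among these 10. Over all genes 32 rose and 39 fell by at least 2-fold with a paired call.

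Blood and vessel genes differed in a few members. Vegfc, the ligand of the lymphatic and early endothelial receptor Flt4, read 7.72, 7.40 and 6.34 against 6.43, 6.18 and 5.02. Both pools 3 were lower than their group, and each pair fell by a like amount (-1.28, -1.22 and -1.32; effect -1.27; adjusted p = 0.406 unpaired, 0.00084 paired). Calcrl, the adrenomedullin receptor, read 8.95, 7.64 and 7.93 against 7.80, 6.44 and 6.42 (effect -1.29; 0.597 unpaired, 0.0281 paired). For Calcrl 2 other probe sets gave -0.76 and -0.29. These were the 2 calls among 22 VEGF and angiopoietin genes (9.09%, against 0.61% of all genes). With any 1 pair left out 1 of the 22 passed; Vegfc did so each time and Calcrl in none of these fits. Gja4, a gap junction protein of arterial endothelium, read 7.19, 6.72 and 7.22 against 5.29, 5.96 and 5.98. Its effect was -1.30 (adjusted p = 0.0906 unpaired and 0.0473 paired). It was the 1 call among 21 arterial and Notch genes, 4.76% of the list against 0.61% of all genes. With any 1 pair left out 0 of that list passed. Mecom, a factor of blood stem cells and endothelium, read 7.55, 7.38 and 6.88 against 6.44, 6.18 and 5.63 (effect -1.19; 0.0807 unpaired, 0.0021 paired), yet its 2 other probe sets gave -0.10 and -0.04.

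Most endothelial genes passed neither test. Of 27 pan-endothelial genes 1 was called, Plvap, the diaphragm protein of fenestrae, at 10.47, 10.09 and 10.35 against 9.43, 9.49 and 9.65 (effect -0.78; adjusted p = 0.317 unpaired, 0.0395 paired). Plvap is 3.7% of the list, against 0.61% of all genes, and its call was lost with any 1 pair left out. The list median was -0.04 and its mean level 8.35 to 8.59 in wild type and 8.39 to 8.50 in Norrin. Kdr (-0.24), Tek (0.14), Cdh5 (0.13) and Pecam1 (0.36) passed neither test. Erythroid genes gave 0 calls of 22 (median -0.14) and globin and haem synthesis genes 0 of 14 (median -0.06). Rhag, a red cell membrane channel, read 9.75, 8.58 and 8.14 against 8.48, 8.0 and 6.81 (effect -1.06; 0.707 unpaired, 0.087 paired), and Klf1, the erythroid master factor, had an effect of -0.47. Of 22 macrophage and myeloid genes 2 had an effect above 0 and 0 passed (median -0.20); 8385 of 18193 genes had an effect above 0. Its largest effects were Fcgr3 (-0.73) and Adgre1 (-0.54; 0.0599 paired), and its mean level was 6.24, 6.54 and 6.69 in wild type and 6.09, 6.34 and 6.39 in Norrin.

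Basement membrane and parietal endoderm genes had the highest list median after Norrin among lists of more than 5 genes, 0.34, with 0 of 17 called by either test. Pth1r, the parathyroid hormone receptor of parietal endoderm, read 10.13, 10.32 and 9.70 against 10.87, 11.25 and 12.32 (effect 1.43; adjusted p = 0.439 unpaired, 0.0685 paired), laminin alpha 1 (Lama1) 9.63, 8.90 and 9.51 against 10.14, 9.66 and 10.42 (effect 0.72; 0.0703 paired) and collagen IV alpha 2 (Col4a2) 11.70, 11.40 and 11.47 against 11.95, 11.99 and 12.43 (effect 0.60; 0.0896 paired). The 3 Norrin pools were above the 3 wild type pools in 4 of the 17 genes, against 5.89% of all genes. The list's median difference was 0.07, 0.22 and 0.61 in pairs 1 to 3, largest in pair 3.

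**Figure D4:**
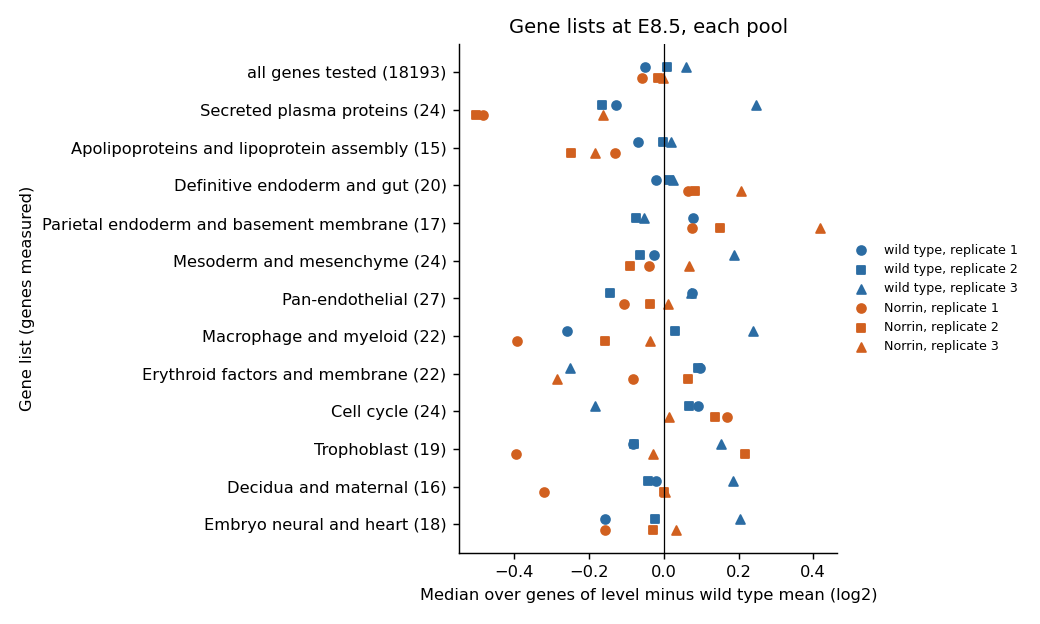
Median over each gene list of a pool's level minus the wild type mean (log2), for the 3 wild type and 3 Norrin pools at E8.5. Plasma protein genes lie lower in Norrin than in the wild type pool of the same number, while trophoblast genes are highest in Norrin pool 2 with a median of 0.22.

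Markers of tissues that a dissection could carry along were checked in every pool. Trophoblast genes were high in Norrin pool 2: Prl8a9 read 4.10, 4.18 and 4.26 in wild type and 4.12, 7.03 and 3.85 in Norrin, and Prl7d1 4.95, 4.97 and 5.31 against 4.67, 7.84 and 5.68. Both are placental prolactin-like hormones, and in the other 5 pools they were at or near the floor. Plac1, a placental membrane protein, read 9.62, 9.11 and 9.14 against 9.77, 11.15 and 10.38. The mean level of the 19 trophoblast genes was 6.80 to 7.05 in wild type and 6.56, 7.60 and 7.0 in Norrin. By the paired test 1 of them fell, Esx1, a placental homeobox gene (effect -0.88; adjusted p = 0.203 unpaired, 0.0448 paired), and 0 rose. Esx1 is 5.26% of the list, against 0.61% of all genes, and with any 1 pair left out 0 of the list passed. The part of these trophoblast genes in the results was not tested. Of 16 decidua and maternal genes 0 passed the unpaired test and 1 the paired test, Bmp2, a decidual gene as well as the BMP ligand described above. Bmp2 is 6.25% of that list, against 0.803% of all genes, and with any 1 pair left out 0 of the list passed. The list's mean level was 6.80 to 6.87 in wild type and 6.70, 6.97 and 6.95 in Norrin. Without Norrin pool 2 the unpaired test called 1 gene, Prom1, and without pair 2 the paired test called 89. Embryo neural and heart genes gave 0 calls of 18, with mean levels of 5.57 to 5.92 in wild type and 5.58 to 5.72 in Norrin. The Y-linked genes Eif2s3y and Kdm5d were low in Norrin pool 1 (3.26 and 3.69) against 5.30 to 7.04 and 5.21 to 6.95 in the other 5, so the pools differ in their share of male embryos. Its part in the results was not tested.

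Set beside E10.5, where 741 genes (4.07%) passed the unpaired test, the 14 genes kept their direction in all 14 cases and 10 of them passed there too. Sox17 had an effect of 2.97 at E10.5 against 2.71 at E8.5, Cyp26a1 3.05 against 2.54, Nefl 2.68 against 2.93, Flrt3 2.47 against 2.11, Prom1 1.94 against 1.71 and Cpm 1.89 against 1.83. Each of these passed at both stages. The 4 that did not pass at E10.5 were Nefm (0.86, adjusted p = 0.125), Msx2 (1.00, 0.0541), Slc40a1 (-0.50, 0.13) and Tcim (-0.18, 0.911). The difference between the stages was past the threshold in 0 of the 14 by the unpaired test, where 17 genes (0.0934%) passed it. The lowest adjusted p of the 14 was 0.083 for Scube2, whose effect was 1.02 at E8.5 and 2.11 at E10.5. With the block, the difference passed for Nefm (0.0127), Msx2 (0.0376), Scube2 (0.0164) and Tcim (0.0178), among 376 genes (2.07%). Of the 257 paired calls at E8.5, 157 (61.1%) were also paired calls at E10.5, which is 6.54% of the 2400 there (13.2% of all genes), and 153 of these kept their direction. The groups of the stages share no pools, but both effects were judged against the same spread of each gene, from 1 fit. A gene with a small spread is thus more easily called at both stages. The 13.2% is therefore not the overlap to expect of unrelated effects.

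**Figure D5:**
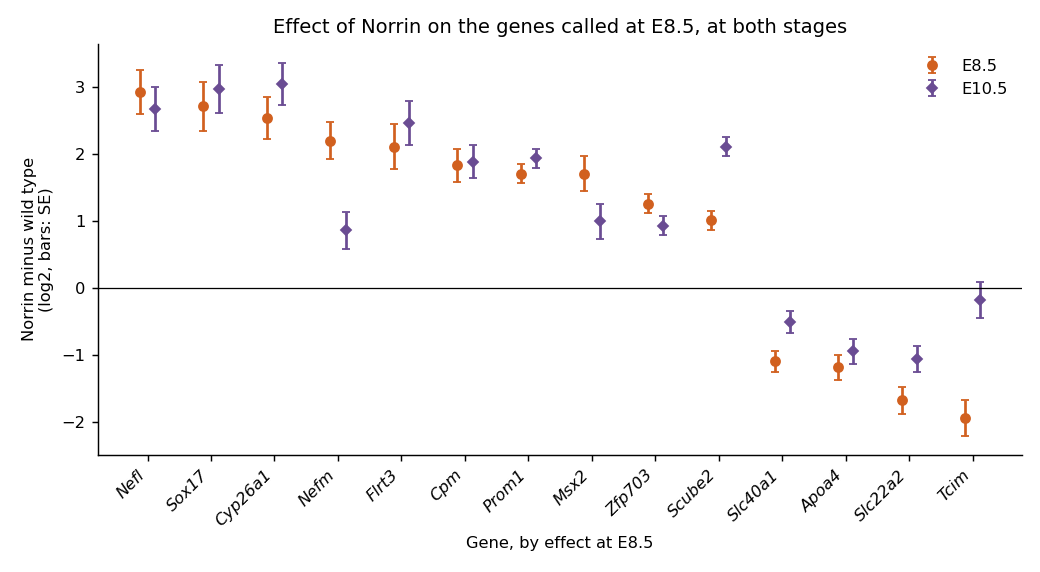
Effect of Norrin (Norrin minus wild type, log2; bars are the standard error of the limma fit) in both stages, for the 14 genes called at the earlier one. The sign is the same at both stages for each gene, and Tcim is the farthest apart, at -1.94 and -0.18.

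How firmly each of the 14 calls stands differs with the arrays used. Without wild type pool 1, 2 or 3 the unpaired test called 2, 10 and 6 genes, and without Norrin pool 1, 2 or 3 it called 10, 1 and 19, so that the count rests most on Norrin pool 2 and wild type pool 1. Prom1 passed in all 6 of these fits, Zfp703 in 5, Nefl, Nefm and Slc22a2 in 4, Sox17 and Cyp26a1 in 3, Cpm and Tcim in 2 and Msx2 and Scube2 in 1. Apoa4, Flrt3 and Slc40a1 passed in 0 of them, with effects that kept their size: -1.20 to -1.14 for Apoa4, 1.76 to 2.30 for Flrt3 and -1.17 to -1.0 for Slc40a1. In the paired test with a replicate pair left out, Nefl, Nefm, Sox17, Prom1, Msx2, Zfp703, Slc22a2 and Apoa4 passed in all 3 fits, Cyp26a1, Flrt3, Cpm, Scube2 and Tcim in 2 and Slc40a1 in 1. Of the 257 paired calls 20 passed in all 3 such fits, among them also Spp2, Fga, Col14a1, Vegfc, Mecom, Fcgrt and Fabp1, and 165 passed in 0. Of the 26 gene lists with a paired call, 11 held one in each of these fits and 7 in none. All 257 kept their direction, but these fits reuse pairs that made the calls, so this adds no support.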

How the data were processed

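Total RNA of pooled yolk sacs was hybridised to Affymetrix mouse whole-genome expression arrays. The deposited log2 values were made by the authors with RMA (background correction, quantile normalization, median polish), according to the submitters' processing notes; its version is not given in the sources used here. With arrays no read depth exists, and their number limits the precision (median SE of an effect 0.159, and 0.104 with the block).

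Of 45101 probe sets, 34945 named 1 gene in the platform annotation, 932 several and 9160 none here; 34741 matched RefSeq by gene ID, and 64 were controls. For each of 18193 genes the probe set with the highest mean over 12 arrays was used (9010 had several). Positions and promoters are RefSeq's (GRCm38.p6).

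The unpaired test was limma 3.58.1 in R 4.3.3 with 1 mean per group over 12 arrays (8 residual and 4.17 prior degrees of freedom), two-sided, Benjamini-Hochberg adjusted over all genes. The paired test added replicate number as a block within each stage (4 residual and 4.73 prior). The pairing rests on the data, and the labels do not say what a number shares. Deviations from the group means correlated at 0.73, 0.32 and 0.73 between same-numbered E8.5 pools. At E10.5 they correlated at 0.51, 0.21 and 0.22, so that all were above 0.1. Number 2 was the least distinct: wild type 2 correlated at 0.30 with Norrin 1 at E8.5 and at 0.16 with Norrin 3 at E10.5. The remaining differently numbered pools ran from -0.72 to 0.02. The fit was tested on simulated data.

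The comparison, the 41 gene lists and the rule for named genes were chosen with earlier results of these data known. The rule named the Norrin complex, all 14 unpaired calls, up to 10 paired calls per direction with non-overlapping pools and a higher group mean at or above 7.68, up to 4 members per list, and other members of lists described in full. Alternatives were other arrays, blocks, probe set rules, filters, scalings, weights and left-out arrays.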

Additional observations from a re-analysis of the deposited data

Results flagged for a closer look

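The effect of Norrin differed between E8.5 and E10.5 past the threshold in 17 genes by limma's unpaired interaction test. The 6 described here were picked by membership of a gene list, a paired call at E8.5, or opposite signs at the stages. Opposite signs counted only where the E8.5 pools of the groups did not overlap. Saa4, a serum amyloid protein, had an effect of -0.16 at the earlier and -2.88 at the later stage, a difference of 2.72 (adjusted p = 0.00034). Flt1, a VEGF receptor, had 0.03 and 1.69, a difference of -1.65 (adjusted p = 0.0030). Aox4, an aldehyde oxidase, had -0.37 and 1.52, a difference of -1.89 (adjusted p = 0.006), and Abcb1a, an efflux pump, -0.69 and -2.68, a difference of 1.99 (adjusted p = 0.0261). Adamts1, a matrix protease, moved from -0.64 to 0.98, a difference of -1.62 (adjusted p = 0.0463), and the meiotic factor Mnd1 from 0.65 to -0.96, a difference of 1.60 (adjusted p = 0.0358). At E8.5 itself these 6 passed the unpaired test in 0 cases, and Abcb1a alone passed the paired test (0.0113). A paired call at E8.5 was itself among the rules for picking them.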

How the results depend on the processing

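The count of 14 genes at E8.5 became 257 (146 higher, 111 lower) with the replicate block within each stage, 193 (82 higher, 111 lower) with the replicate block in the 6 E8.5 arrays alone, 0 in those arrays without a block (951 at an unadjusted p under 0.05) and 5147 (2440 higher, 2707 lower) with array weights, which gave wild type replicate 2 a weight of 5.14 and Norrin replicate 2 one of 8.03 against 0.22 to 0.45 for the other E8.5 arrays. Leaving out single arrays gave 1 to 19 genes, and the replicate block without pair 1, 2 or 3 gave 39, 89 and 34. The other settings gave 13 to 19, with 12 higher and 3 lower after centring. The mean of all probe sets shared 10 of the 14, and lost Msx2 (0.82, adjusted p = 0.063), Zfp703 (0.51, 0.208), Tcim (0.058) and Slc40a1 (0.101). Of 57 paired calls checked, 9 were lost with the block in the 6 arrays alone. The 17 genes whose effect differed between stages became 376 with the block and 37 with the mean of probe sets, and 5 to 36 with an array left out. Some effects changed sign: Ndp to 0.033 and Lrp5 to 0.0072 after quantile normalization, and with array weights Lrp5 to 0.17, Tspan12 to -0.20 and Znrf3 to -0.26. With an E8.5 array left out Lrp5 ran from -0.12 to 0.13, Tspan12 from -0.29 to 0.43, Fzd4 from -0.13 to 0.35 and Prl8a9 from -0.19 to 1.40. With the replicate block Lrp5 gave 0.013 without pair 1 and 0.049 without pair 3, Tspan12 -0.073 without pair 1 and Prl8a9 -0.19 without pair 2. Of these, 0 had passed a test. The cause was not tested. With 3 pools a group, and a stated pairing missing from the labels, calls made by the paired test alone rest on that pairing. The gene list counts with a pair left out were chosen after seeing the data.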

Other observations

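Beyond the lists, 5 genes that the report does not describe passed the paired test in every fit that left out a replicate pair; they were named after their values were seen. Dpep1, a membrane dipeptidase, read 7.42, 7.38 and 7.14 in wild type and 8.28, 8.39 and 8.47 in Norrin (effect 1.07; adjusted p = 0.0779 unpaired, 0.0047 paired). Slc24a4, a sodium, potassium and calcium exchanger, read 7.23, 7.49 and 7.13 against 8.04, 8.43 and 8.0 (effect 0.88; 0.0544 and 0.0048), and Gxylt2, a xylosyltransferase that extends glucose on Notch, 5.52, 6.15 and 5.93 against 6.45, 6.94 and 6.87 (effect 0.89; 0.127 and 0.0048). Dram1, a lysosomal protein induced by p53, had effects of 1.22 (E8.5) and -0.91 (E10.5) (0.0048 paired at E8.5; difference between stages 0.145 unpaired, 0.0014 with the block). Glp1r, the receptor of the incretin GLP-1, was the 1 lower gene, at 7.15, 6.76 and 7.65 against 6.36, 5.93 and 6.54 (effect -0.91; 0.228 and 0.0050). The groups lay apart in each of the 5.

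Collagen and stress genes gave single paired calls. P4ha1, the collagen prolyl hydroxylase subunit, read 9.61, 9.92 and 9.77 against 10.21, 10.60 and 10.67 (effect 0.73; adjusted p = 0.0933 unpaired, 0.0104 paired) and was the 1 call among 28 hypoxia and glycolysis genes, whose median was -0.06. Jun, a component of AP-1, had an effect of 0.55 (0.707 unpaired, 0.0309 paired, 0.0517 with the block in the 6 E8.5 arrays alone). It was the 1 call among 20 immediate early and stress genes. P4ha1 and Jun are 3.57% and 5% of their lists, against 0.803% of all genes. Second probe sets gave 0.61 for P4ha1 and 0.11 for Jun, and neither passed the paired test. With pair 1, 2 or 3 left out 0, 1 and 0 of the hypoxia list passed, and the Jun call was lost each time. At E10.5 the effect of Jun was 2.09, and the difference between the stages had an adjusted p of 0.23 unpaired and 0.0015 with the block. Of 24 cell cycle genes 0 passed either test (median 0.10), as did 0 of 18 cholesterol synthesis genes (median 0.11), 0 of 22 Hox genes (median -0.11) and 0 of 14 interferon genes (median -0.11).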
